A study of Mus musculus with 24 samples.

Results

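The genes described here are 9 transcription factor genes that mark progenitor domains along the dorsoventral axis of the developing spinal cord: Pax6, Dbx1, Dbx2, Nkx6-1, Nkx2-2, Olig2, Irx3, Neurog1 and Neurog2. The rule names the genes and uses no measured value, although it was set with earlier results of these data known, and all 9 were found among the 51912 genes of each count table. Their levels were read in 9 mouse RNA-seq libraries, 3 for each of 3 groups. The ESC group was the wild-type embryonic stem cell line TC-1 (strain C57BL/6 X 129S5), and the NP group was neuronal progenitors, made from those cells by growth as aggregates without leukaemia inhibitory factor and then with retinoic acid. The TET TKO group was undifferentiated embryonic stem cells lacking TET1, TET2 and TET3, the enzymes that oxidise 5-methylcytosine, in a line of another strain (C57BL/6 X 129/sv), so that the knockout and the line cannot be told apart. The other 15 samples of the series carry targeted methylation measurements of inserted binding motifs and hold no value for these genes.

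In the neural tube, Sonic hedgehog from the notochord and floor plate forms a ventral source, and BMP and WNT signals from the roof plate form a dorsal one. Progenitors read these signals through homeodomain and basic helix-loop-helix factors, which repress each other across domain borders, so that each domain holds its own combination and yields its own class of neuron. Hedgehog signalling represses Pax6, Irx3, Dbx1 and Dbx2, the class I factors, and it induces Nkx6-1, Olig2 and Nkx2-2, the class II factors. Neurog1 and Neurog2 are proneural factors that drive progenitors out of the cycle. Retinoic acid, the agent used to make the NPs, is also a patterning signal of the spinal cord.

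The total count per library was 20570050 to 23976914 in ESCs, 20519702 to 22132988 in NPs and 80704741 to 93210102 in TET TKO ESCs, so that the TET TKO libraries were the deepest. The study's methods call the replicates biological, and the labels do not say whether they came from separate cultures, so the p-values below measure the spread between these libraries. Tet1, reported first as a check of the labels, fell from 65.1 ± 3.92 RPKM in ESCs to 13.5 ± 2.38 in TET TKO ESCs (SD, n = 3 each). Tet2 fell from 19.0 ± 2.47 to 2.48 ± 0.20 RPKM, and Tet3 stood at 0.72 ± 0.07 and 0.55 ± 0.07 RPKM. Transcripts of all 3 genes remained, and counts per gene do not show which exons they hold. All 10 pluripotency markers on the list used here fell in NPs. Pou5f1, which encodes OCT4, went from 393 ± 19.7 to 1.09 ± 0.70 RPKM.

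Because 7 of the genes were called higher in NPs, and because the study concerns DNA methylation, the sequences before the RefSeq starts of 4 members are shown, from the RefSeq table for GRCm38.p6. They are Dbx1, the member with the highest mean level in NPs, Neurog2, which had the largest NP to ESC ratio of counts among members with at least 3 ESC counts, Olig2, the motor neuron progenitor factor, and Nkx2-2, the member that stayed low. Each sequence is the part of the 250 bases before the RefSeq start that lies outside the exons of the count tables, 5′ to 3′ on the gene's strand, with CpG dinucleotides in capitals. The stretches lie at chr7:49636850-49637085 on the minus strand (Dbx1), chr3:127632886-127633134 on the plus strand (Neurog2), chr16:91225300-91225549 on the plus strand (Olig2) and chr2:147186456-147186652 on the minus strand (Nkx2-2). The Nkx2-2 stretch lies inside the longer Ensembl gene, between its exons, so it is upstream sequence only for the RefSeq start.
Dbx1: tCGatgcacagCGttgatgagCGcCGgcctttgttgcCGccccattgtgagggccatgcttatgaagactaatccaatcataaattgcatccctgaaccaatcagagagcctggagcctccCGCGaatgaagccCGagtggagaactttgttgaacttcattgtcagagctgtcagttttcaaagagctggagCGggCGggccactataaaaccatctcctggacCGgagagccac
Neurog2: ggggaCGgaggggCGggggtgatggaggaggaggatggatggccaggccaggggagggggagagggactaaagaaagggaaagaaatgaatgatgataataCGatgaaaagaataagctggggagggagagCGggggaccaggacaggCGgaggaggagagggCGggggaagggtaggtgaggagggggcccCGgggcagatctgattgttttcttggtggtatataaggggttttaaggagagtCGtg
Olig2: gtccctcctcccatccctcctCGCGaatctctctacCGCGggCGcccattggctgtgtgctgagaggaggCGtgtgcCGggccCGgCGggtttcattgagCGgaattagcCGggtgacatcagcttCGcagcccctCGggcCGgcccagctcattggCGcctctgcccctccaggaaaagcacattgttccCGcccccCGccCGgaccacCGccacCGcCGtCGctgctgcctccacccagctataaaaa
Nkx2-2: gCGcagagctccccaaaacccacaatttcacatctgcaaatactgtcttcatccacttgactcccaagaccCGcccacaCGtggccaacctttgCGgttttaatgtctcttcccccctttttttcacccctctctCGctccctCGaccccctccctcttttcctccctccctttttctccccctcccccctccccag

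In the whole windows, from 250 bases before to 50 after the start, the 10 windows of the 9 genes (Pax6 has 2) held 10 to 40 CpGs. The windows of Dbx2, Nkx6-1, Nkx2-2 and Irx3, and the second of Pax6, lay inside the longer gene spans of the count tables. The median over 32841 mouse promoter windows was 7, with quartiles of 3 and 20. Nkx6-1 had 40 CpGs, more than 96.1% of the windows, Neurog1 had 32 and Olig2 had 25. Dbx2 and Neurog2, with 10 each, had the fewest. Nkx2-2, with 17 CpGs, lay in the middle of the members although its transcript was near 0. Dbx1, the highest member in NPs, had 15. The methylation of these promoters was not measured in the data used here.

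**Figure D1:**
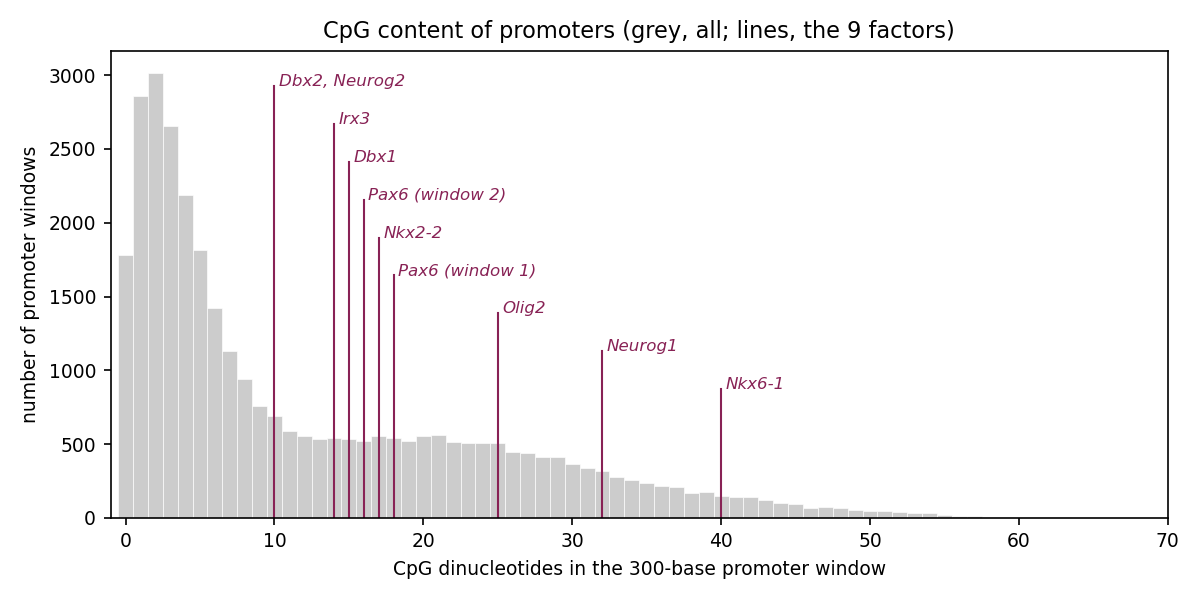
CpG dinucleotides per promoter window of 300 bases (x axis) against the number of RefSeq windows (y axis, grey bars), with a vertical line at the value of each member, 2 for Pax6; line height only spaces the names. All 10 lines stand above the median of 7, from 10 for Dbx2 and Neurog2 to 40 for Nkx6-1.

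A search of both strands of the windows for 5 short motifs found few. TATAAA, the core of the TATA box, was in the windows of Dbx1 and Olig2, where it can be read near the 3′ end of the sequences above, and in 13.6% of all windows. The E-box CAGATG, a form bound by proneural factors, was in the windows of Dbx2 and Nkx2-2 and in 17.2% of all windows. AGGTCA, the core repeat of retinoic acid receptor sites, was in the Neurog1 window and in 16.3% of all, and the homeodomain core TAATTA was in the Neurog1 window and in 5.29% of all. The GLI motif TGGGTGGTC was in no member's window and in 0.253% of all windows. None of the 5 motifs contains another, and a match marks letters only, not a bound site.

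The first comparison, NPs against ESCs, addressed which of the factors came on during neuronal differentiation. Of the 9 genes, 8 had at least 1 RPKM in 1 library and were tested, and 7 were higher in NPs at an adjusted p under 0.001 and a fold of at least 3 by edgeR's quasi-likelihood test: Pax6, Dbx1, Irx3, Nkx6-1, Olig2, Neurog1 and Neurog2. Dbx2 missed the threshold, and Nkx2-2 was below the filter. Of all 15020 genes tested, 12.4% were called higher and 9.99% lower, 22.4% together. The genes that passed the filter did so through their NP libraries, so their number is no measure of how often such genes change. In bulk RNA, fewer cells of a type and less RNA per cell cannot be told apart.

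**Figure D2:**
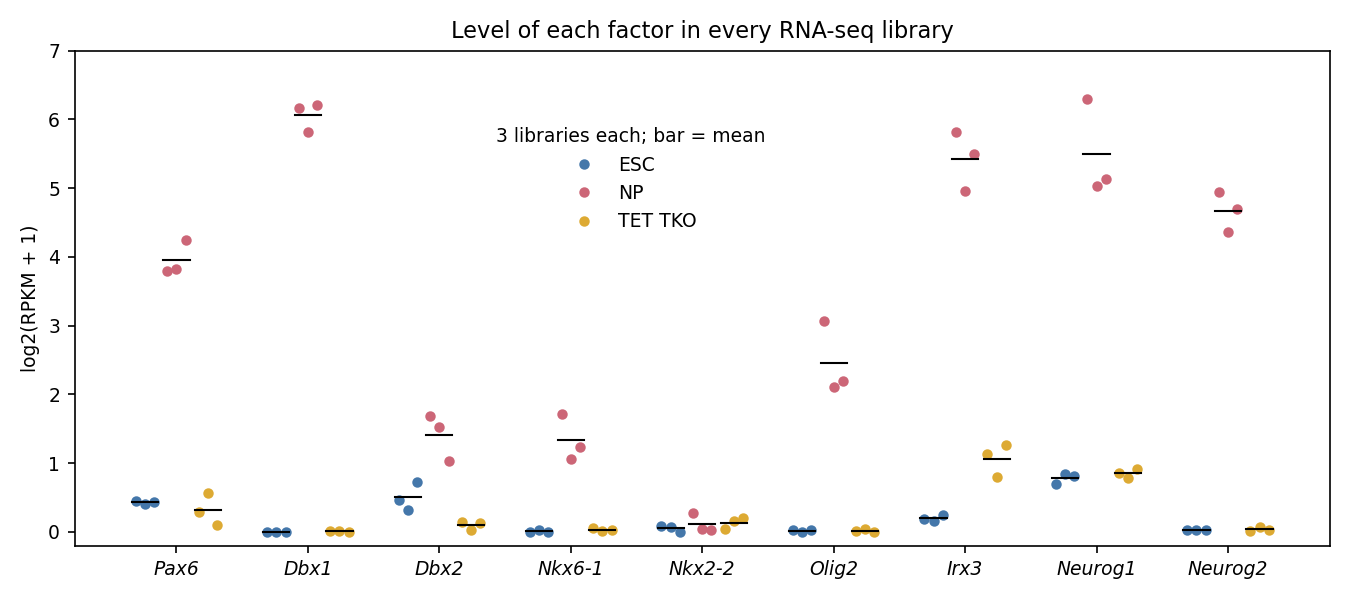
Level of each member in every library, as log2(RPKM + 1) on the y axis, with 3 libraries for each group and a bar at the mean of these log values. The NP points stand clear of the ESC points for every gene except Nkx2-2, and only Irx3 and Dbx2 separate TET TKO from ESC points. How often genes in general separate in this way was not counted.

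Among the class I factors, Dbx1, which marks the progenitors of V0 interneurons in the middle of the cord, had the sharpest contrast. It lies at chr7:49631499-49636849 on the minus strand (ENSMUSG00000030507). It had 0 counts in all 3 ESC libraries and 3141, 2819 and 3557 counts in NP 1, 2 and 3, or 70.5, 55.5 and 73.4 RPKM. Against a floor of 3 counts over the ESC group, it was at least 3123-fold higher in NPs (adjusted p = 1.24e-06).

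Irx3, an Iroquois homeodomain factor of the progenitors dorsal to the motor neuron domain, had 8, 7 and 13 counts in the ESC libraries and 3270, 2021 and 2816 in the NP libraries. Its NP levels were 55.6, 30.1 and 43.996 RPKM, and its log2 fold change was 8.15 ± 0.34 (SE, adjusted p = 8.56e-07). The gene lies at chr8:91798525-91802067 on the minus strand. Irx3os, transcribed from the opposite strand, shares 124 of its 2762 exonic bases (4.49%), and had 0 to 5 counts in ESCs and 158 to 263 in NPs. Reads were counted without strand and not assigned where genes overlap, so reads inside the shared bases count for neither gene.

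Pax6, a paired-box factor graded from dorsal to ventral and needed for correct ventral patterning, was already transcribed in ESCs, at 92, 84 and 101 counts (0.37, 0.33 and 0.35 RPKM). In NPs it had 3229, 3756 and 4870 counts, or 13.0, 13.2 and 18.0 RPKM. The log2 fold change was 5.38 ± 0.19 (adjusted p = 4.66e-07). Pax6 spans chr2:105668900-105697364 on the plus strand and is the longest member, with 11694 exonic bases, so its counts overstate its level beside the shorter genes.

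Dbx2 (chr15:95623563-95655960, minus strand), which shares the intermediate domains with Dbx1, moved least of the class I factors. It had 28, 19 and 55 counts in ESCs and 163, 157 and 83 in NPs, that is 0.38, 0.25 and 0.65 RPKM against 2.21, 1.87 and 1.04. The groups did not overlap, but the log2 fold change of 1.97 ± 0.43 did not pass (adjusted p = 0.00359). Without the filter on low levels the same test gave an adjusted p of 8.49e-05, and DESeq2 on the filtered genes gave 0.000104. The call on Dbx2 thus depends on the procedure.

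The class II factors came next. Olig2, which specifies motor neuron and later oligodendrocyte progenitors, had 1, 0 and 1 counts in ESCs and 382, 197 and 202 in NPs (7.36, 3.33 and 3.58 RPKM). The NP to ESC ratio of depth-scaled counts was 384 (95% exact interval 106 to 3180, for counting error only), and the adjusted p was 1.37e-05. The gene is at chr16:91225550-91228677 on the plus strand. Nkx6-1 (chr5:101658139-101664996, minus strand), which spans the ventral domains including that of motor neurons, had 1 ESC count in all and 153, 83 and 98 counts in NPs (2.29, 1.09 and 1.35 RPKM). Its ratio was 329 (58.6 to 13030), with an adjusted p of 3.14e-05.

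Nkx2-2, the factor of the progenitors next to the floor plate, was the exception. It had 4, 3 and 0 counts in ESCs and 13, 2 and 1 in NPs, and NP 1 held 13 of the 16 NP counts. The groups overlapped, and the highest library was NP 1, at 0.21 RPKM. The gene lies at chr2:147177546-147194243 on the minus strand. In the fit without the filter, the log2 fold change was 1.14 ± 0.95 (unadjusted p = 0.241 in edgeR, adjusted p = 0.374), and the counting interval of the ratio ran from 0.88 to 6.47. A change of that size was not detectable at this depth. Nkx2-2 shares 278 of its 2875 exonic bases with Nkx2-2os, which had 0 to 2 counts in every library. Shh itself was at 2.07 ± 0.96 RPKM in NPs, with 1 count over the ESC libraries. Foxa2, a factor of the floor plate and also of endoderm, was at 10.1 ± 1.47 RPKM in NPs. Which of these cell types held it was not tested.

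Both proneural members rose, Neurog2 at chr3:127633135-127635631 on the plus strand and Neurog1 at chr13:56250505-56252163 on the minus strand. Neurog2 had 1 count in each ESC library and 1407, 1061 and 1283 in NPs (29.7, 19.6 and 24.9 RPKM), a ratio of 1231 (420.9 to 5972) with an adjusted p of 3.65e-07. Neurog1 had a base level in ESCs, with 22, 29 and 31 counts (0.62, 0.80 and 0.76 RPKM), and reached 2749, 1284 and 1316 counts in NPs (77.8, 31.8 and 34.2 RPKM). Its log2 fold change was 6.02 ± 0.42 (adjusted p = 9.16e-06). NP 1 held more Neurog1 than NP 2 and NP 3 together.

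**Figure D3:**
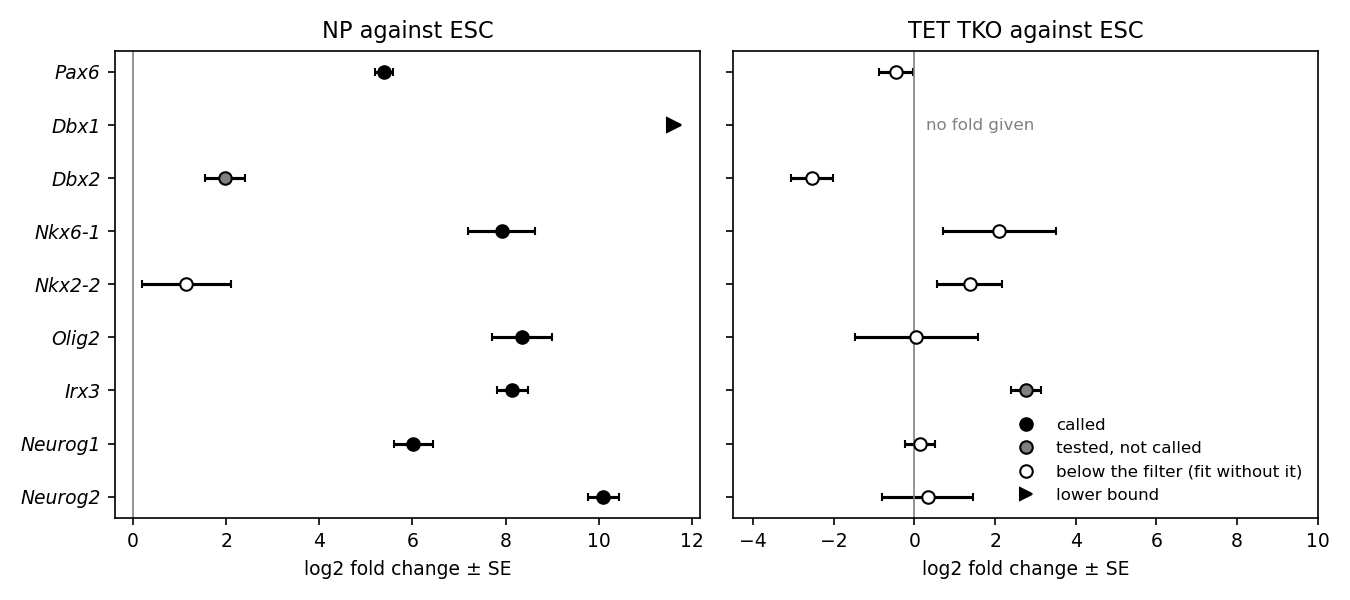
Log2 fold change with its SE (x axis) of each member in NPs against ESCs (left) and TET TKO ESCs against ESCs (right, another x scale); both share the ESC libraries. Filled points were called, grey points tested and not called, open points below the filter and taken from the fit without it; for Nkx6-1, Olig2 and Neurog2, with 1 to 3 ESC counts, the fitted value depends on the prior count, and for Dbx1 an arrow marks the lower bound or no fold is given.

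Ordered by RPKM, which allows for gene length, the NP levels were Dbx1 66.5 ± 9.63 (SD, n = 3), Neurog1 47.9 ± 25.9, Irx3 43.2 ± 12.7, Neurog2 24.7 ± 5.03, Pax6 14.7 ± 2.82, Olig2 4.75 ± 2.26, Dbx2 1.70 ± 0.60, Nkx6-1 1.57 ± 0.63 and Nkx2-2 0.09 ± 0.11. The ranges of Dbx1 and Neurog1 overlapped, as did those of Neurog1 and Irx3 and those of Dbx2 and Nkx6-1, so these neighbours were not separated. The others were. Among genes at 1 RPKM or more in NPs, Dbx1 stood at the 95.2 percentile and Nkx6-1 at the 9.14 percentile. The class I factors Dbx1, Irx3 and Pax6 thus lay above all 3 class II factors in every NP library, while Dbx2 lay among them.

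The NP libraries differed from each other. NP 1 was the highest of the 3 for Neurog1 (162% of the NP mean), Olig2 (155%), Nkx6-1 (145%), Dbx2 (130%), Irx3 (129%) and Neurog2 (120%). NP 3 was highest for Pax6 (122%) and for Dbx1 (110.5%). NP 2 was highest for no member. The coefficient of variation over the NP libraries ran from 14.5% for Dbx1 to 53.9% for Neurog1 among the 8 genes tested, against 1.59% to 9.48% that counting error alone would give. NP 1 also stood apart beyond these genes. Over the genes with enough counts, its chi-square per degree of freedom was 63.1 against NP 2 and 67.9 against NP 3. Between NP 2 and NP 3 it was 39.5. How often NP 1 is the highest NP library among all genes was not counted, so the order above only describes the members. What sets NP 1 apart was not tested.

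**Figure D4:**
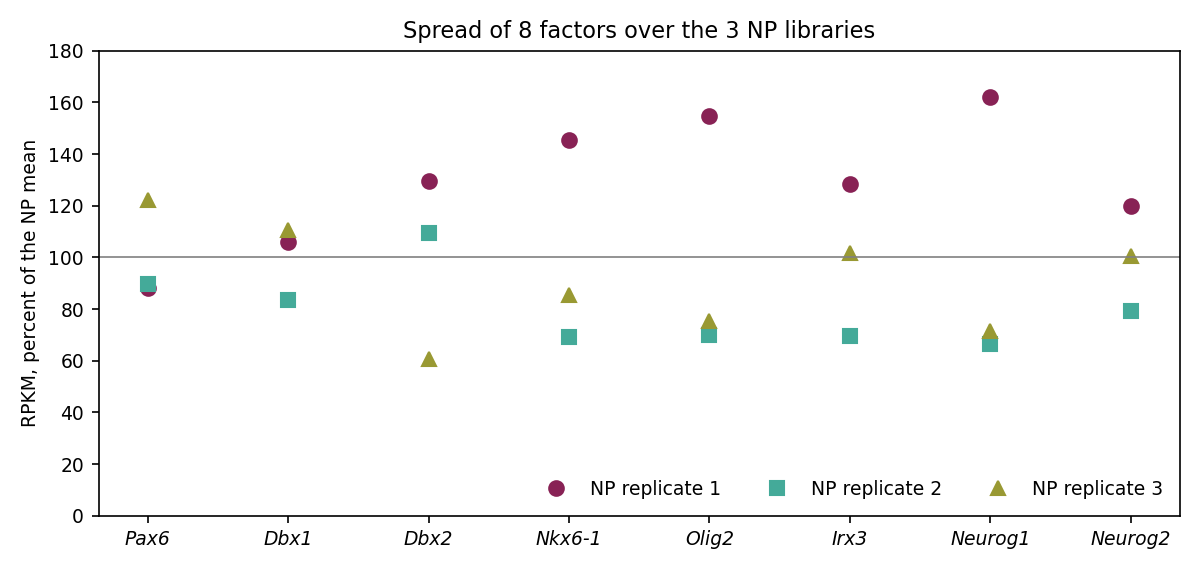
RPKM in each NP library as a percentage of the mean over the 3 NP libraries (y axis) for the 8 members tested (x axis); the line marks 100%. NP 1 is the highest library for 6 genes, led by Neurog1 at 162%, and NP 3 is the highest for Pax6 and Dbx1.

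Of 16 dorsal progenitor factors, 13 were tested, 10 were called higher in NPs and none lower, and the median log2 fold change over those tested was 6.41 (0.03 over all genes tested). Genes near 0 in ESCs, such as Pax3 and Zic1, passed the filter through their NP libraries and had to differ, here and in the lists below, so these medians and counts describe the genes tested and are no measure of how often such genes change. Pax3, a dorsal paired-box factor, reached 9.44 ± 3.94 RPKM from 0.01 ± 0.01 (log2 fold change 9.52 ± 0.57, adjusted p = 4.25e-06). Zic1 reached 10.6 ± 2.49 RPKM (9.85 ± 0.45, adjusted p = 1.15e-06). Ptf1a, which specifies dorsal inhibitory neurons, had no ESC count and 4.29 ± 2.52 RPKM in NPs, at least 147-fold higher (adjusted p = 0.00024).

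Of 11 ventral progenitor genes, 9 were tested, 5 were higher and 1 was lower, with a median of 1.78. Those higher included Prdm12, of the V1 progenitors, at 11.2 ± 3.07 RPKM (8.19 ± 0.41, adjusted p = 1.81e-06), and Sp8 at 5.79 ± 3.02 RPKM (6.58 ± 0.62, adjusted p = 3.88e-05). Nkx2-9, a relative of Nkx2-2 that marks the same ventral domain, went down, from 4.81 ± 1.49 to 0.88 ± 0.42 RPKM (−2.45 ± 0.41, adjusted p = 0.000926). That call is marginal: it was lost without ESC 1 (adjusted p = 0.00447), ESC 2 (0.00448), ESC 3 (0.00134), NP 1 (0.00480) or NP 3 (0.00408), and with library sizes alone (0.00139).

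Downstream of the progenitor factors, 16 of 24 proneural and neurogenesis genes were higher and 1 was lower, of 20 tested (median 3.89). Nhlh2 reached 10.5 ± 3.11 RPKM (9.77 ± 0.52, adjusted p = 2.33e-06), and Dcx, a microtubule protein of migrating neurons, reached 7.68 ± 2.62 RPKM from 2 counts over the ESC libraries. Stmn2, a neuronal tubulin-binding protein, was the one lower, from 56.1 ± 6.93 to 7.58 ± 1.86 RPKM (−2.90 ± 0.21, adjusted p = 9.27e-06). Of 29 factors of postmitotic spinal neurons, 17 were tested, 9 were higher and 1 lower (median 3.81). Lhx1, of several interneuron classes, reached 24.8 ± 4.47 RPKM (8.45 ± 0.28, adjusted p = 3.65e-07), and Mnx1, the motor neuron factor also called HB9, reached 8.09 ± 3.68 RPKM (5.90 ± 0.49, adjusted p = 2.02e-05). Foxd3 was the one lower, from 20.3 ± 4.01 to 2.02 ± 0.82 RPKM, and it is also a factor of pluripotent cells.

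All 15 pan-neural progenitor genes were tested, and 12 were higher and 1 lower (median 4.26). Hes5, a Notch effector, reached 34.5 ± 14.7 RPKM (9.20 ± 0.59, adjusted p = 5.78e-06). Sox2, shared by pluripotent and neural progenitor cells, was the one lower, from 226 ± 16.0 to 54.0 ± 7.40 RPKM (−2.08 ± 0.13, adjusted p = 4.63e-06). Of 24 signals and receptors of the patterning pathways, all tested, 15 were higher and 2 lower (median 2.81). The retinoic acid degrading enzymes Cyp26a1 and Cyp26b1 reached 156 ± 50.9 and 112 ± 40.3 RPKM (8.83 ± 0.39, adjusted p = 1.03e-06, and 10.7 ± 0.43, adjusted p = 7.9e-07). Wnt1, a roof plate signal, reached 24.98 ± 4.49 RPKM from 2 counts over the ESC libraries. Other genes of the lists that the roof plate expresses were mixed. Msx1 went from 0.11 ± 0.02 RPKM in ESCs to 29.5 ± 5.38 in NPs, and Msx2 from 0.81 ± 0.25 to 6.44 ± 1.88. Bmp7 went from 1.38 ± 0.41 to 26.5 ± 7.48 RPKM, and Bmp4 was at 8.98 ± 1.56 and 5.97 ± 6.19. Wnt3a was at 0.31 ± 0.10 RPKM in ESCs and 2.78 ± 0.84 in NPs. Lmx1a was at 0.72 ± 0.41 and 0.90 ± 0.48 RPKM, and Gdf7 at 0.21 ± 0.06 and 0.08 ± 0.03. Rarg, a retinoic acid receptor, was lower and went from 61.7 ± 17.5 to 8.82 ± 4.13 RPKM (−2.83 ± 0.37, adjusted p = 0.000226). Its call was lost without NP 2 (adjusted p = 0.0013) and with all 3 groups in the fit (0.00115).

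Markers of other cell types also moved with differentiation. Of 10 endoderm markers, 8 were tested, 5 were higher and 1 lower, and their summed level was 32.4 to 35.4 RPKM in ESCs and 173 to 210 in NPs. Most of that sum was Cldn6, an epithelial claudin, at 166 ± 15.4 RPKM in NPs, and Foxa1, which the floor plate also expresses, stood at 14.9 ± 3.74. Sox17, which defines endoderm, was at 3.83 ± 0.92 RPKM in NPs. Hnf4a was the one lower, from 1.68 ± 0.28 to 0.20 ± 0.07 RPKM (−3.07 ± 0.32, adjusted p = 6.6e-05). Its call was lost with all 3 groups in the fit (adjusted p = 0.0019). Of 12 mesoderm markers, 5 were tested, 1 was higher and 2 lower, and the sum ran from 53.2 to 63.1 RPKM in ESCs and 10.96 to 36.7 in NPs. Most of the ESC sum was Pecam1, at 27.97 ± 7.45 RPKM, and Tcf15, at 24.3 ± 1.72, the 2 called lower. Their NP levels were 0.48 ± 0.29 and 3.68 ± 1.65 RPKM, while Meox1 went from 0.49 ± 0.11 to 12.5 ± 10.05. Tcf15 lost its call with all 3 groups in the fit (adjusted p = 0.00263). Of 11 neural crest and glia markers, 4 were tested and 2 were higher (sums of 3.24 to 4.002 and 11.3 to 14.1 RPKM). Of 10 forebrain markers, 4 were tested, 1 was higher and 2 lower (14.4 to 18.0 and 2.52 to 7.09 RPKM), and Otx2, of the forebrain and midbrain, fell from 12.9 ± 1.46 to 0.25 ± 0.06 RPKM (−5.72 ± 0.23, adjusted p = 8.4e-07). Some of these calls were lost in fits that hold 1 library fewer. Ttr, called higher on the endoderm list, lost its call without any 1 of the 6 libraries (adjusted p from 0.00115 to 0.00452), and Meox1, the mesoderm gene called higher, lost it without any 1 ESC library (0.00124 to 0.00207). On the forebrain list, Hesx1, called lower, lost its call without any 1 NP library (0.00237 to 0.00295), and Emx2, called higher, lost it without ESC 3 (0.0011). The part of these cell types in the members' levels was not tested.

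**Figure D5:**
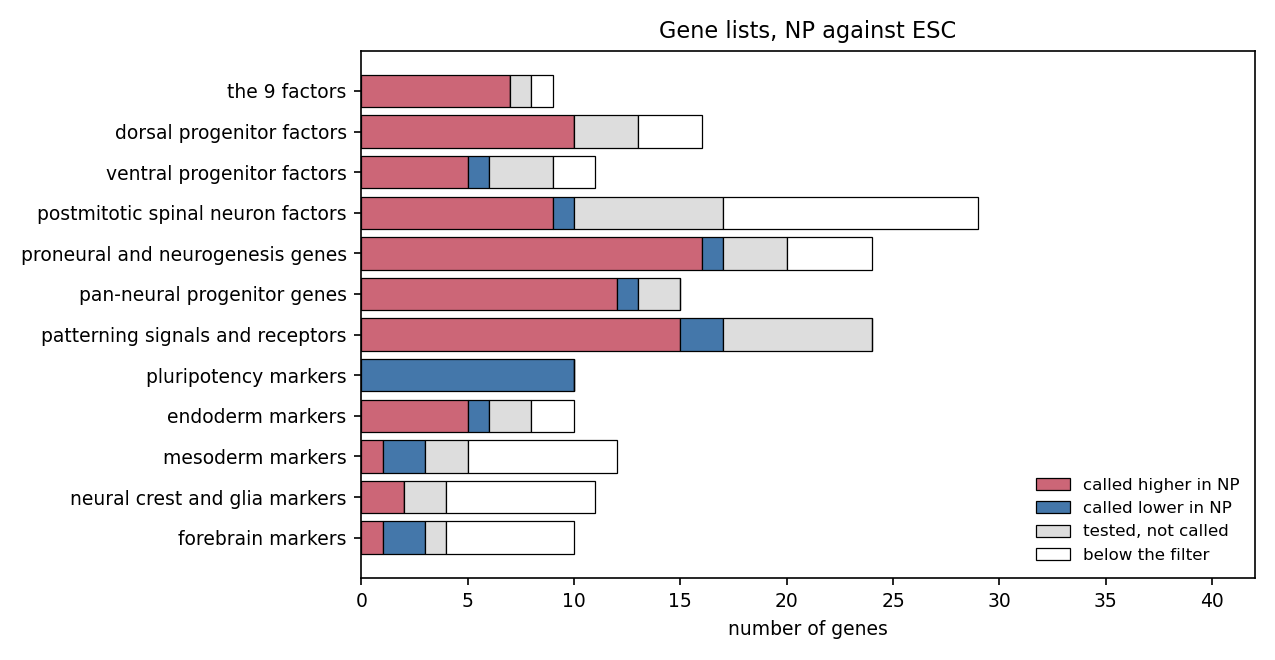
Number of genes (x axis) of the 9 members and of 11 gene lists (y axis) that were called higher or lower in NPs than in ESCs, tested but not called, or below the filter. Of the 9 members 7 were called higher, as were 10 of 16 dorsal and 5 of 11 ventral progenitor factors, while all 10 pluripotency markers were called lower.

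The members' closest companions over the 9 libraries were sought by Pearson's r of log2(CPM + 1) among 14770 genes. Hoxb3 was closest to Dbx1 (r = 0.999954), Nr2f1 to Neurog2, Hoxa6 to Nkx6-1, Nhlh1 was second for Olig2 after B230323A14Rik, Fgfr3 was second for Irx3 after Faxc, Lrrtm1 was closest to Neurog1, and Cdh2, the neural cadherin, to Pax6 (r = 0.994917). Dbx2, which also varied among the undifferentiated libraries, was closest to Col26a1. The 9 points fall into 3 groups, and the NP libraries stand apart from the other 6 for most of these genes. For every tested member except Dbx2 at least 824 genes had an r over 0.95, against 100 for Dbx2. The order of the leading genes therefore carries little information.

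The second comparison, TET TKO ESCs against ESCs, addressed whether the factors differed in undifferentiated cells without TET enzymes. It shares its ESC libraries with the first. Of the 9 genes, 1 reached the filter, and none was called. Of 14050 genes tested, 2.15% were called, 0.840% higher and 1.31% lower. At an unadjusted p under 0.05, that 1 tested gene, Irx3, was higher.

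Irx3 had 8, 7 and 13 counts in ESCs (0.14, 0.12 and 0.19 RPKM) and 253, 145 and 332 counts in the deeper TET TKO libraries (1.19, 0.74 and 1.39 RPKM). All 3 TET TKO values lay above all 3 ESC values. The log2 fold change was 2.77 ± 0.38, and the adjusted p of 0.002 missed the threshold of 0.001. It passed in the DESeq2 fit (3.52e-07), in the edgeR fits without the filter (1.74e-05), with all 3 groups (7e-04) and with a replicate block (0.00064). It did not pass in edgeR with library sizes alone (0.00247), DESeq2 size factors (0.00193), edgeR's own expression filter (0.00159) or a filter of 10 counts (0.00175). Nor did it pass without any 1 library (0.00174 to 0.0149). With TET TKO counts thinned to the ESC depth it also failed (0.00215), at a log2 fold change of 2.76. The TET TKO mean of 1.11 ± 0.34 RPKM was far under the NP mean of 43.2 ± 12.7 RPKM. Irx3os had 11 to 74 counts in TET TKO libraries. Irx5, the neighbouring Iroquois gene, was below the filter, at 0.14 ± 0.09 RPKM in ESCs and 0.44 ± 0.19 in TET TKO ESCs, with overlapping ranges.

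Dbx2 went the other way. It had 28, 6 and 27 counts in the TET TKO libraries (0.10, 0.02 and 0.09 RPKM) against 0.38, 0.25 and 0.65 RPKM in ESCs, and the groups did not overlap. It was below the filter. Without the filter, the log2 fold change was −2.54 ± 0.51 (adjusted p = 0.000796), and with edgeR's own expression filter the adjusted p was 0.0116. Dbx2 was thus highest in NPs, intermediate in ESCs and lowest in TET TKO ESCs, with no overlap between any 2 groups, though all levels outside NPs were under 0.65 RPKM.

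The other 7 members overlapped between the 2 kinds of stem cell. The share of all genes that overlap or separate in this way was not counted, so these counts only describe the members. Neurog1 was nearly level, at 0.73 ± 0.09 RPKM in ESCs and 0.81 ± 0.09 in TET TKO ESCs (104, 85 and 127 counts), with a ratio of 1.11 and a counting interval of 0.87 to 1.44. Pax6 had 198, 401 and 77 counts in the TET TKO libraries (0.22, 0.48 and 0.08 RPKM), a 6.29-fold range, against 0.33 to 0.37 RPKM in ESCs. Its spread in the knockout cells exceeded any difference between the group means. Dbx1 had 2, 2 and 0 counts, Olig2 2, 5 and 0, Neurog2 2, 8 and 3, Nkx6-1 11, 2 and 4, and Nkx2-2 6, 23 and 37, all at or under 0.15 RPKM. In the fit without the filter, the unadjusted edgeR p of these 7 ran from 0.104 to 0.975. The counting interval of the ratio ran from 0.19 to 9.96 for Olig2 and from 0.34 to 6.84 for Neurog2, so a difference of a few fold was not detectable for these genes.

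In TET TKO ESCs none of the dorsal (3 tested of 16), ventral (5 of 11), neurogenesis (12 of 24), pan-neural (10 of 15) or patterning genes (19 of 24) was called in either direction. Among 7 postmitotic factors tested, Pax8 was lower (0.84 ± 0.16 to 0.09 ± 0.03 RPKM, −3.39 ± 0.35, adjusted p = 0.000652). That call was lost without any 1 library except TET TKO 3 (adjusted p from 0.00193 to 0.0043) and with all 3 groups in the fit (0.00201). Of the 10 pluripotency markers, Zfp42 was lower, from 304 ± 5.63 to 50.6 ± 11.02 RPKM (−2.71 ± 0.16, adjusted p = 7.51e-05). The sum of that list was 2752 to 2859 RPKM in ESCs and 2592 to 3356 in TET TKO ESCs. Hand1, of the mesoderm list, was higher, from 0.50 ± 0.27 to 9.89 ± 3.56 RPKM (4.18 ± 0.44, adjusted p = 0.000715), and lost its call without any 1 of the 6 libraries (0.00112 to 0.00556). No endoderm (2 tested of 10), crest and glia (5 of 11) or forebrain marker (3 of 10) was called. The summed endoderm level was 52.2 to 91.2 RPKM in TET TKO ESCs. Most of it was Cldn6, at 66.6 ± 19.9 RPKM against 30.2 ± 1.83 in ESCs. Sox17 was at 0.11 ± 0.03 RPKM in TET TKO ESCs and 0.12 ± 0.07 in ESCs.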

How the data were processed

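Poly(A) RNA was sequenced in 9 libraries, 3 per group. Per the file headers and the study's methods, the authors aligned single-end 50 bp reads to GRCm38 with STAR (2.6.1b in the submitters' processing notes) and deposited raw counts per Ensembl 89 gene from featureCounts, without strand and without assigning a read to overlapping genes. Gene symbols matched 51633 of 51912 identifiers. RPKM used the deposited exon length and TMM-scaled library sizes over all 9 libraries. Each comparison was fitted on its 6 libraries with edgeR 4.0.16 (R 4.3.3, glmQLFit and glmQLFTest, TMM), over genes with at least 1 RPKM in at least 1 library. A call needed a fold of 3 or more and an adjusted p (Benjamini-Hochberg) under 0.001. SE is the log2 fold change divided by the square root of F. Ratio intervals are exact at 95%. A count of 0 allows up to 3 counts, or 0.0348 to 0.141 CPM per library.

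Alternatives were other scalings and filters, DESeq2 1.42.0, other thresholds, 3 groups, a replicate block, thinned counts and leaving out each library. The scripts were tested on simulated data. The members and the 12 gene lists were chosen with earlier results of these data known. Genes outside the members were named by size: up to 3 called genes per list with the largest rise and fall whose higher group had 10 counts or more in each library, the 2 with the highest r, overlapping genes and Tet1 to Tet3. Foxa2, Cldn6, Irx5, Wnt3a, Lmx1a, Gdf7, Msx1, Msx2, Bmp4 and Bmp7 were named after their values were seen. The 15 methylation samples were not used. The values of 1 listed gene are not reported here.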

Additional observations from a re-analysis of the deposited data

How the results depend on the processing

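The 7 members called in NPs were called in every alternative, each leave-one-out fit included, where the count stayed at 7. Dbx2 made it 8 with DESeq2, without the filter and at an adjusted p under 0.05. In TET TKO ESCs the count of members called was 0, and 0 in each leave-one-out fit. It became 1 (Irx3) with DESeq2, at an adjusted p under 0.05, with all 3 groups in the fit and with the replicate block, and 2 (Irx3 and Dbx2) without the filter. Over all genes, the 3365 calls in NPs became 5281 without the filter, 9656 at an adjusted p under 0.05 with no minimum fold and 2454 to 3380 in the leave-one-out fits. The 302 calls in TET TKO ESCs became 930 with DESeq2, 1263 without the filter and 4720 at an adjusted p under 0.05. They were 47 without ESC 1, 58 without ESC 2, 71 without ESC 3, 91 without TET TKO 1, 167 without TET TKO 2 and 300 without TET TKO 3, fits that hold fewer libraries. With counts thinned to the ESC depth, 292 were called. The causes of the other shifts were not tested.

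Replicate numbers do not pair the samples by any label. Same-numbered ESC and NP libraries correlated at −0.08, 0.01 and −0.19 in their deviations from the group means, and ESC and TET TKO libraries at −0.13, 0.47 and 0.28, and not every library correlated best with its own number. With the replicate block, 3316 genes and 7 members were called in NPs, and 600 genes and 1 member in TET TKO ESCs.

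No log2 fold change of a named gene changed sign. Of 800 values in NPs, 24 lost and 3 gained a call, and of 102 in TET TKO ESCs, 12 lost and 5 gained one. Group means of RPKM moved by at most 1 SD in all 108 cases. Most of these cases leave out 1 of 3 libraries, which cannot move a mean by 1 SD. They are therefore no test of how stable the means are. Levels under about 0.1 RPKM rest on a few counts.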
